A study of Mus musculus with 2 samples.

Results

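The mRNAs of oxidative phosphorylation (OXPHOS) were read out by genome and by complex in livers of HFD-fed mice that had received AAV-GFP or AAV-*Wee1-AS*. Nuclear members were mRNAs whose symbols begin with Nduf, Uqcr, Cox and a digit, or Atp5, or are *Sdha*, *Sdhb*, *Sdhc* or *Sdhd*. Mitochondrial members were the genes of chromosome M. The rule found 104 nuclear symbols and 37 mitochondrial genes, 141 of the 45777 gene symbols in the series. Of the 37, 13 encode proteins, 2 encode rRNAs and 22 encode tRNAs, so 117 OXPHOS mRNAs are described here. After a filter of at least 10 counts in at least 1 library, 100 nuclear members and all 13 mitochondrial mRNAs were kept, among 15857 genes kept in all. The nuclear symbols comprise 84 structural subunits of complexes I to V, 17 assembly factors, the supercomplex factor *Cox7a2l*, and *Ndufb4b* and *Ndufb4c*, copies of *Ndufb4*.

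Both groups were C57BL/6 N mice started on HFD at 7 weeks of age and fed it for 18 weeks, and the virus was given at week 13 of the diet, 5 weeks before the end. The control virus carried GFP and the test virus carried *Wee1-AS*, a long noncoding RNA from the strand opposite to *Wee1*, both overexpressed on top of the same diet. The vector was an AAV9 with the CMV promoter injected into the retro-orbital sinus, which is not specific to hepatocytes, and the sources used here do not say how many mice were in each library. Poly-A RNA of whole liver was sequenced in 1 library per group, with totals of 55463141 (AAV-GFP) and 48077302 (AAV-*Wee1-AS*) estimated counts. No spread between mice could be estimated, so no test was run and no p-value is given. Where a pair of counts is given, AAV-GFP comes first. Each log2 ratio below is AAV-*Wee1-AS* over AAV-GFP after TMM scaling, which sets the bulk of genes equal between the libraries, and its exact 95% interval covers counting error only, and copies made by PCR are not independent molecules. The vector's own transcript was not analysed here.

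OXPHOS is the pathway by which the inner mitochondrial membrane turns the electrons of NADH and succinate into ATP. Complexes I, III and IV move electrons and pump protons, complex II feeds electrons from succinate, and complex V (ATP synthase) makes ATP. Nuclear DNA and mitochondrial DNA (mtDNA) share the task of encoding complexes I, III, IV and V, whereas complex II comes from nuclear genes alone. The mtDNA is transcribed as long precursors that are then cut into single mRNAs, nearly all from one strand, with *ND6* on the other. Hepatocytes hold many mitochondria and burn fatty acids through this pathway.

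A few pairs of mtDNA genes share bases, and reads from a shared stretch cannot be assigned to one of the pair. These stretches are printed because their genes stand among the lowest and among the highest ratios below. Sequences are from GENCODE transcripts of GRCm38 (mm10), plus strand, with the shared bases in capitals. The window of *ATP8* and *ATP6* is chrM:7915-7981, with 43 shared bases, and that of *ND4L* and *ND4* is chrM:10155-10185, with 7 shared bases. In both, the capitals open with the ATG of the second gene.
ATP8/ATP6: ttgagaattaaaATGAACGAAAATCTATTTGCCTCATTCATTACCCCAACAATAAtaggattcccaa
ND4L/ND4: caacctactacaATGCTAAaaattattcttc

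Many nuclear OXPHOS genes are known targets of the transcription factors NRF1, GABPA (an ETS factor) and YY1, so the 250 bases before the start site were searched for their core letters on both strands. Promoters from RefSeq (GRCm38.p6) were matched for 83 nuclear members at the start nearest to that of their most abundant transcript. That start lay 51 bases away for *Atp5j2*, 67 for *Ndufa10*, 761 for *Atp5pb* and 1162 for *Ndufa13*. The NRF1 letters, GCGCN followed directly by TGCGC, were found in 13 of 83 (15.7%), against 3.86% of 27025 promoters of the same length, 1 per gene. The ETS letters CCGGAAG were found in 16 (19.3%, against 7.05%) and the YY1 letters AAGATGGC in 1 (1.20%, against 1.59%). The windows below hold the NRF1 letters, in capitals, on either strand, in 3 members with higher counts in the AAV-*Wee1-AS* library (*Sdha*, *Ndufa5* and *Ndufaf4*) and 3 with lower counts. They are shown 5' to 3' on the strand of the gene and lie at chr13:74350271-74350310 for *Sdha*, chr6:24527692-24527731 for *Ndufa5*, chr4:24897955-24897994 for *Ndufaf4*, chr5:115349096-115349135 for *Cox6a1*, chr15:102671065-102671104 for *Atp5g2*, chr17:56717687-56717726 for *Ndufa11*.
Sdha: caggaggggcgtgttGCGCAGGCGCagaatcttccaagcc
Ndufa5: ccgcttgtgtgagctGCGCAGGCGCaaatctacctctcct
Ndufaf4: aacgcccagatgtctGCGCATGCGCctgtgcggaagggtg
Cox6a1: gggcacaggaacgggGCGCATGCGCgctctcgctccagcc
Atp5g2: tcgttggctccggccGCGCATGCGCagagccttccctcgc
Ndufa11: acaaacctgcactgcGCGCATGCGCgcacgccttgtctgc
The median log2 ratio was -0.48 over the 13 members with these letters and -0.52 over the 68 kept members without them. With the ETS letters the median was -0.66 over 16 members, and without them -0.49 over 65.

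The 2 genomes differed in direction. Of the 13 mtDNA-encoded mRNAs, 10 had a ratio above 1 and 8 were more than 2-fold higher in the AAV-*Wee1-AS* library, where 49.9% and 22.5% of all genes kept were. None of the 13 was below 0.5-fold, against 8.44% of all genes, and their median log2 ratio was 1.16, with a range of -0.76 to 1.92. Of the 100 nuclear members, 85 had a ratio below 1, against 50.1% of all genes, and the median was -0.53. Past 2-fold in either direction were 5 of the 100, against 31% of all genes: *Ndufs1* and *Ndufaf4* were higher, and *Ndufb2*, *Cox7a1* and *Cox4i2* lower. The nuclear differences were thus mostly below 2-fold and mostly of one direction. The counting interval lay wholly below 1 for 81 nuclear members and wholly above 1 for 12, and over all genes for 37.4% and 39.6%. The ratio of all genes also declined with GC content, and with the trends for GC content and length removed the median was -0.01 for the mtDNA-encoded mRNAs and -0.09 for the nuclear members.

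**Figure D1:**
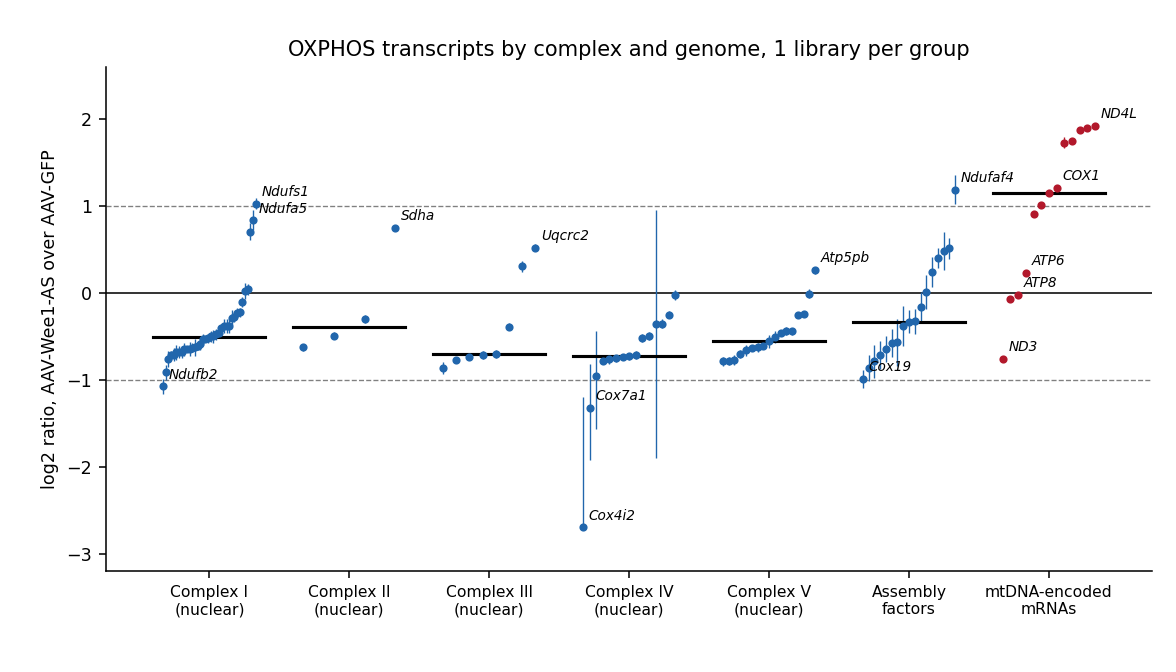
Log2 ratio (AAV-*Wee1-AS* over AAV-GFP) of each structural subunit and assembly factor kept, by complex, with nuclear-encoded members in blue and mtDNA-encoded mRNAs in red. Bars are 95% counting intervals (for *Cox4i2*, which had no counts with AAV-*Wee1-AS*, only the upper end is drawn), black lines are medians of the members, and dashed lines mark 2-fold. Most nuclear members lie between 0 and -1, and 8 of the 13 mtDNA-encoded mRNAs lie above 1.

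The same difference appeared in the shares of the libraries. The 13 mtDNA-encoded mRNAs held 2.99% of the counts with AAV-GFP and 6.23% with AAV-*Wee1-AS*. *COX1*, the catalytic subunit of complex IV, alone held 1.11% and 2.46%. The nuclear members held 1.57% and 1.12%. On the TPM scale, which divides by transcript length and depth, mtDNA-encoded mRNAs made up 5.05% and 9.72% of the total, and nuclear members 3.05% and 2.08%. The ratio of mitochondrial to nuclear counts does not depend on how the libraries are scaled. It was 1.90 with AAV-GFP and 5.55 with AAV-*Wee1-AS*, a 2.92-fold difference. The median GC content was 37.1% for the mtDNA-encoded mRNAs and 51.0% for the nuclear members. The trend with GC content was not removed from this ratio.

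This ratio was taken within each complex that draws on both genomes. In complex I, 7 mtDNA-encoded subunits over the nuclear ones gave 2.01 with AAV-GFP and 6.70 with AAV-*Wee1-AS*. In complex III, the single mtDNA-encoded subunit *CYTB* gave 1.96 and 9.06, the largest difference of the 4 complexes (4.61-fold). The nuclear sum there leaves out *Cyc1*, a nuclear subunit that the rule did not include. In complex IV, *COX1*, *COX2* and *COX3* gave 6.37 and 19.1. In complex V, *ATP6* and *ATP8* gave 0.378 and 0.578, a 1.53-fold difference and the smallest of the 4. Taken from TPM, the differences were 3.17-fold, 4.83-fold, 2.76-fold and 1.57-fold for complexes I, III, IV and V. None of these ratios had the trend with GC content removed.

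**Figure D2:**
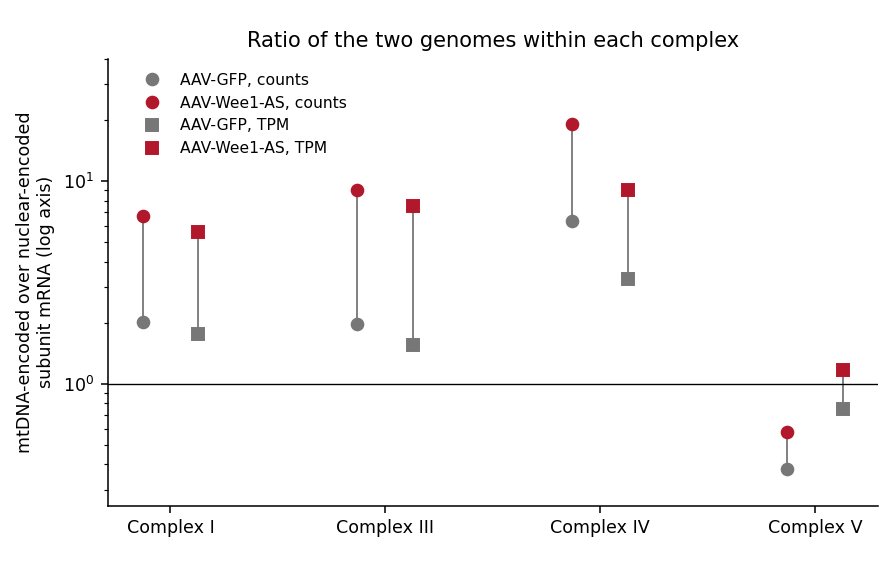
Sum of mtDNA-encoded over sum of nuclear-encoded structural subunit mRNAs (log axis) within complexes I, III, IV and V, for the AAV-GFP library (grey) and the AAV-*Wee1-AS* library (red), from counts (circles) and TPM (squares). In all 4 complexes the AAV-*Wee1-AS* value is the higher, with the narrowest gap in complex V. The trend with GC content is not removed, and *Cyc1* is not in the nuclear sum of complex III.

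Along the mtDNA the ratio was not even. *ND1*, *ND2*, *COX1* and *COX2*, the first 4 mRNA genes after the rRNA genes, had log2 ratios of 0.91, 1.16, 1.22 and 1.01. The next 4, *ATP8*, *ATP6*, *COX3* and *ND3*, stood at -0.02, 0.23, -0.06 and -0.76. The last 5, *ND4L*, *ND4*, *ND5*, *ND6* and *CYTB*, stood at 1.92, 1.90, 1.87, 1.73 and 1.75. The cuts between the 3 stretches fall where the ratio steps, so their lack of overlap in ratio is not a separate result. *ND6*, the only mRNA read from the other strand, was close to its neighbours, though the strand setting of counting is not known.

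Among the complex I subunits of the mtDNA, which form its proton-pumping membrane arm, 6 of 7 were higher, where 49.9% of all genes were. *ND1* (chrM:2751-3707), which helps to form the quinone site, had 152650 counts with AAV-GFP and 236839 with AAV-*Wee1-AS*. *ND2* (chrM:3914-4951) had 122479 and 225188 counts. *ND4* (chrM:10167-11544) had 58610 and 180548 and *ND5* (chrM:11742-13565) 55624 and 168234. *ND4L* (chrM:9877-10173), which shares its last 7 bases with *ND4*, had 9619 and 30104, and its log2 ratio of 1.92 (95% counting interval 1.89 to 1.96) was the highest of the 13. *ND6* (chrM:13552-14070) was the least abundant, at 141 and 455 TPM, and had 2404 and 6587 counts. It overlaps *ND5* by 14 bases on the opposite strand. Only *ND3* (chrM:9459-9806) was lower, with 19375 counts with AAV-GFP and 9448 with AAV-*Wee1-AS* and a log2 ratio of -0.76 (95% counting interval -0.79 to -0.72). *ND3* and *ND4L* were thus the extremes of the mtDNA although only a tRNA gene lies between them.

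*CYTB* (chrM:14145-15288), the cytochrome b of complex III, had 184771 counts with AAV-GFP and 511627 with AAV-*Wee1-AS*, a log2 ratio of 1.75 (95% counting interval 1.74 to 1.75). Per length it was the second most abundant mtDNA-encoded mRNA with AAV-*Wee1-AS*, at 16023 TPM against 4904 with AAV-GFP. Of the complex IV core, *COX1* (chrM:5328-6872) was the most abundant in both libraries, at 12119 and 27389 TPM, with 616689 counts with AAV-GFP and 1181133 with AAV-*Wee1-AS* and a log2 ratio of 1.22 (95% counting interval 1.21 to 1.22). *COX2* (chrM:7013-7696), which accepts electrons from cytochrome c, had 92919 and 154695 counts, just past 2-fold. *COX3* (chrM:8607-9390) had 215422 counts with AAV-GFP and 169905 with AAV-*Wee1-AS* and was near equal after scaling. The 2 ATP synthase subunits of the mtDNA differed little. *ATP6* (chrM:7927-8607), part of the proton channel, had 112632 counts with AAV-GFP and 108848 with AAV-*Wee1-AS*, and *ATP8* (chrM:7766-7969) had 17237 and 13997, with a counting interval of -0.05 to 0.01.

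**Figure D3:**
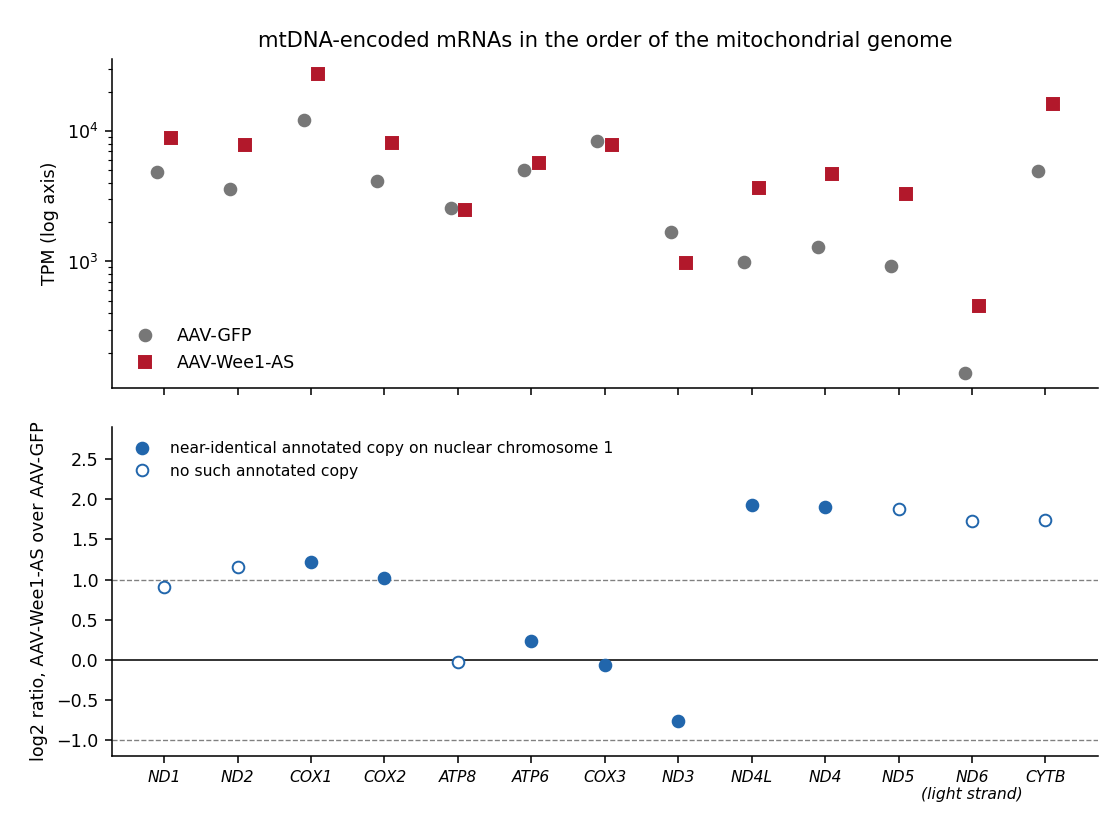
The 13 mtDNA-encoded mRNAs in genome order, with TPM in each library on a log axis (upper panel) and the log2 ratio with its 95% counting interval, mostly smaller than the symbol (lower panel). Filled symbols mark genes with a near-identical annotated copy on nuclear chromosome 1, and *ATP8* to *ND3* are the stretch with ratios between -0.76 and 0.23.

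Part of the mtDNA has a copy in the nuclear genome, so some reads could come from or align to either. Of the 13 mRNAs, 7 (*COX1*, *COX2*, *ATP6*, *COX3*, *ND3*, *ND4L* and *ND4*) matched annotated pseudogenes between positions 24611535 and 24616197 of chromosome 1 at 99.7% identity or more, *COX1* over 483 of its bases and *ND4* over 876. The deposited table lists no transcript there. The other 6 (*ATP8* among them) had no annotated copy above 98% identity over at least 100 bases, and bases between annotated transcripts were not searched. In the mtDNA *ATP8* lies between *COX2* and *ATP6*. The copies of these lie at 24614885 to 24615565 and 24613974 to 24614651, so a copy of *ATP8* without annotation may lie between them. The median log2 ratio was 1.01 for the 7 and 1.44 for the 6, a split that places *ATP8* by annotation alone. The low and the high stretch both hold genes with a copy. Of the 22 tRNA and 2 rRNA genes, which poly-A selection recovers poorly, 16 were kept. All 16 had a ratio above 1, with a counting interval wholly above 1 for 12, where 49.9% and 39.6% of all genes did. *mt-Rnr1*, the small rRNA, had 18087 and 24461 counts (log2 ratio 0.71) and *mt-Rnr2*, the large rRNA, 21178 and 21677 (0.31). With the trends for GC content and length removed these turned to -0.44 and -0.90. The tRNA genes had no GC value, so the trends could not be removed from their ratios.

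Nuclear-encoded complex I had 36 subunit mRNAs kept, 31 with a ratio below 1 (50.1% of all genes were), and a median log2 ratio of -0.51. With the trends for GC content and length removed, 21 were above and 15 below 0. The 7 core subunits carry the flavin and iron-sulfur clusters of the peripheral arm. Of these, *Ndufs7* had 3557 counts with AAV-GFP and 1561 with AAV-*Wee1-AS* (log2 ratio -0.91). *Ndufv1*, the NADH-binding subunit, had 14963 and 7903 (-0.64) and *Ndufs8* 5880 and 3435 (-0.50). *Ndufs3* stood at -0.22, and *Ndufv2* at 0.04 with an interval that included 0. *Ndufs1*, the largest core subunit (NCBI gene 227197, chr1:63143592-63176822), was the exception, with 3119 counts with AAV-GFP and 5257 with AAV-*Wee1-AS* and a log2 ratio of 1.03 (95% counting interval 0.97 to 1.10).

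The higher level of *Ndufs1* lay in 1 of its 6 listed transcripts. That transcript had 2 and 2329 counts, or 0.0641% and 44.3% of the gene. The other 5 together had 3117 and 2928, a log2 ratio of 0.19 (0.11 to 0.26). Counts of overlapping transcripts are estimates that share out the same reads, and without that transcript the gene was not past 2-fold. Of 44 nuclear members with several transcripts and at least 100 counts in both libraries, 7 had a transcript whose share of the gene differed by more than 10 percentage points. In *Ndufa13* a transcript had 3495 counts and 0, and the rest was near equal after scaling (log2 ratio -0.01). In *Ndufaf6* a transcript had 339 and 25, while the rest stood at 0.85.

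Of the 29 accessory subunits of complex I, 26 had a ratio below 1 (50.1% of all genes did). With the trends removed, 15 were above and 14 below 0. *Ndufb2* (chr6:39592565-39599843), a membrane arm subunit, was the lowest, with 3619 counts with AAV-GFP and 1417 with AAV-*Wee1-AS* and a log2 ratio of -1.07 (95% counting interval -1.16 to -0.99). Its more abundant transcript had 2511 and 787 and the rest 1108 and 630, which alone was at -0.54. *Ndufc2* had 2960 and 1442 (-0.76). At the other end, *Ndufa5* had 981 and 1448 (log2 ratio 0.84, 95% counting interval 0.72 to 0.96) and *Ndufs4*, an accessory subunit of the NADH-oxidizing module, 1468 and 1976 (0.71, 95% counting interval 0.61 to 0.80). *Ndufb4* (-0.65) and its copies *Ndufb4b* (-0.69) and *Ndufb4c* (-0.74) cannot be separated with certainty, since reads may be shared between them.

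Complex II, succinate dehydrogenase, is encoded by 4 nuclear genes. *Sdha*, the flavoprotein that binds succinate (NCBI gene 66945, chr13:74322255-74350240), had 17909 counts with AAV-GFP and 24900 with AAV-*Wee1-AS*, a log2 ratio of 0.75 (95% counting interval 0.73 to 0.78). *Sdhb*, the iron-sulfur subunit, had 15218 counts with AAV-GFP and 8948 with AAV-*Wee1-AS* (-0.49). The membrane anchors *Sdhc* and *Sdhd* had 14246 and 7639 counts (-0.62) and 11393 and 7637 counts (-0.30), respectively. Before the trends for GC content and length were removed, *Sdha* thus stood apart from its 3 partners. The counting intervals did not overlap, but they cover counting error only. With the trends removed, *Sdha* (0.49) and *Sdhb* (0.18) were above 0, and *Sdhc* (-0.68) and *Sdhd* (-0.25) below. Per length, *Sdha* was the lowest of the 4 with AAV-GFP, at 190.2 TPM, and the highest with AAV-*Wee1-AS*, at 312 TPM, where *Sdhb* had 297.

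Complex III had 8 nuclear subunits within the rule, 6 of them lower (50.1% of all genes were), and a median log2 ratio of -0.71. With the trends removed, 3 were above and 5 below 0. *Uqcr10* was the lowest, with 5117 counts with AAV-GFP and 2322 with AAV-*Wee1-AS* (-0.86). *Uqcrq* had 19481 and 9434 (-0.77). Before the trends were removed, the 2 core proteins stood on opposite sides of 1. With the trends removed, *Uqcrc1* stood at 0.04 and *Uqcrc2* at -0.23. With GC content and length from each gene's longest transcript they stood at -0.28 and -0.12. *Uqcrc1* had 22280 counts with AAV-GFP and 11078 with AAV-*Wee1-AS* (log2 ratio -0.73, 95% counting interval -0.76 to -0.70), and *Uqcrc2* had 9275 counts with AAV-GFP and 10978 with AAV-*Wee1-AS* (0.52, 95% counting interval 0.48 to 0.56). *Uqcrfs1*, the Rieske iron-sulfur protein, had 12242 and 7729 (-0.39), and *Uqcrb* 3769 and 3849 (0.31). *Cyc1*, the cytochrome c1 of the complex, which the rule did not include, had 20533 and 10408 (-0.70).

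In complex IV, all 15 nuclear subunit mRNAs kept had a ratio below 1 (50.1% of all genes did), with a median of -0.73. With the trends removed, 4 were above and 11 below 0. *Cox4i1*, the main subunit IV, had 33441 counts with AAV-GFP and 16523 with AAV-*Wee1-AS* (-0.74). *Cox6a1* had 16775 and 8043 (-0.78), *Cox7a2* 8587 and 4179 (-0.76) and *Cox5a* 8601 and 5558 (-0.35). *Ndufa4*, now counted with complex IV, had 11596 and 8051 (-0.25), and *Cox7b* was near equal after scaling (-0.02, interval -0.08 to 0.04). The mtDNA-encoded *COX1* and *COX2* of the same complex were more than 2-fold higher, but stood at 0.03 and -0.04 with the trends removed.

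The tissue-specific alternatives of complex IV subunits had few counts beside the liver forms. *Cox7a1* (chr7:30184171-30186030), the heart and muscle form of subunit VIIa, had 118 counts with AAV-GFP and 38 with AAV-*Wee1-AS* (log2 ratio -1.32, 95% counting interval -1.92 to -0.82). *Cox4i2* (chr2:152753916-152765039), a subunit IV form known from lung, had 12 and 0 counts, and against a floor of 3 counts in the AAV-*Wee1-AS* library it was at least 3.30-fold lower, a bound that takes the 12 counts as exact. The upper end of its counting interval was -1.196 on the log2 scale, and at either value *Cox4i2* lay below the medians, so these do not change. *Ndufa4l2*, the hypoxia-inducible relative of *Ndufa4*, had 94 counts with AAV-GFP and 39 with AAV-*Wee1-AS* (-0.96), and *Cox6b2*, the testis form of VIb, 13 and 8. With the trends for GC content and length removed, *Cox7a1* stood at -0.33 and *Ndufa4l2* at -0.09 (-0.54 and -0.14 with the longest transcript). *Cox4i2*, at 12 and 0 counts, stood at -1.85. *Cox6a2* had 9 and 0 and was not kept. *Cox7b2*, *Cox8b* and *Cox8c* had 0 counts in both libraries, where a count of 0 allows up to 3. Of 8 markers of skeletal and heart muscle, 5 were also at 0 in both libraries and 1 passed the filter, *Mylpf*, with 20 and 2 counts.

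Complex V had 17 nuclear subunits, 16 of them lower (50.1% of all genes were), and a median log2 ratio of -0.56. With the trends removed, 8 were above and 9 below 0. *Atp5b*, the catalytic beta subunit, was the most abundant of them per length, at 1605 and 1133 TPM. It had 99302 counts with AAV-GFP and 59445 with AAV-*Wee1-AS* (-0.46), and *Atp5a1*, the alpha subunit, 78420 and 54790 (-0.24). The 3 genes of subunit c, which make the same mature ring protein, lay within a narrow range. *Atp5g1* had 10344 and 4960 (-0.78), *Atp5g2* 7864 and 3810 (-0.77) and *Atp5g3* 25446 and 13496 (-0.64). *Atp5j2*, a membrane subunit, was the lowest, 9892 and 4729 (-0.79). *Atp5j* was near equal (-0.01), and *Atp5pb*, the stator subunit b, was the only one with a ratio above 1, 10609 and 10506 (log2 ratio 0.26, 95% counting interval 0.22 to 0.30).

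The 17 assembly factors were less one-sided, with 6 above and 11 below 1 and a median of -0.33, though not with the trends for GC content and length removed, as given further on. *Ndufaf4* (chr4:24898083-24905001), a complex I assembly factor, had 434 counts with AAV-GFP and 817 with AAV-*Wee1-AS*, a log2 ratio of 1.19 (95% counting interval 1.02 to 1.36), the highest of all nuclear members. *Cox15* and *Cox11*, which serve heme A synthesis and copper delivery for complex IV, had 1098 and 1294 counts (0.51) and 326 and 376 counts (0.48), respectively. At the low end, *Cox19* had 2626 and 1095 (-0.98), *Cox14* 1194 and 543 (-0.86) and *Ndufaf8* 719 and 343 (-0.79). Among 34 further assembly factors kept outside the rule, 17 were above and 17 below 1 (median 0.01), and *Ttc19*, a complex III factor, was the only one past 2-fold (371 and 683, 1.15).

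Of 16 genes that maintain and read the mtDNA, 14 were above 1 (49.9% of all genes) and 8 past 2-fold higher (22.5% of all genes), with a median log2 ratio of 0.82. Their median GC content was 45.5%, and in the GC group that holds this value all genes had a median of 0.76, with 38.3% past 2-fold higher. *Tfam*, which packages the mtDNA and starts its transcription, had 1107 and 1840 (1.01), and *Tfb2m*, the initiation factor, 301 and 801 (1.68). *Mterf2*, of the family of mitochondrial termination factors, had 55 and 119 (1.36). *Polrmt*, the mitochondrial RNA polymerase, was lower, 1369 and 790 (-0.51). Of 16 genes of mitochondrial RNA processing, 10 were above 1 and 5 past 2-fold higher (median 0.42), where 49.9% and 22.5% of all genes were. *Lrpprc*, which stabilizes mitochondrial mRNAs, had 2469 and 5144 (1.34), *Pnpt1*, a nuclease of the matrix and intermembrane space, 170 and 800 (2.50), and *Fastkd2* 158 and 616 (2.23).

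Of 7 nuclear regulators kept, 4 were above 1. Of all genes 49.9% were, the share beside which the counts of the lists that follow stand. *Ppargc1a*, the coactivator PGC-1α, had 103 and 216 (1.33) and *Gabpa* 299 and 1453 (2.55), whereas *Nrf1* stood at -0.10. The 17 enzymes of the TCA cycle and the pyruvate dehydrogenase step were split, 8 above and 9 below 1. *Sucla2* (1.88) and *Dld* (1.61) were past 2-fold higher, *Idh2* was below 0.5-fold (-1.02), and *Cs*, citrate synthase, had 11835 and 6235 (-0.65). The 10 inner membrane carriers and related genes kept were all below 1, among them *Ucp2* (7473 and 2754, -1.16). Their median GC content was 53.3%, and in the GC group that holds this value only 25.2% of all genes were above 1. With the trends for GC content and length removed, 4 of the 10 were above and 6 below 0. Of 15 genes of the outer membrane and protein import, 8 were above 1, with *Tomm70a* (1.85) and *Hspd1* (1.44) the highest. In cytochrome c and coenzyme Q synthesis, 5 of 14 were above 1, and *Cycs*, cytochrome c, stood at 0.06.

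All of these ratios were read against base composition, since the 2 libraries differed by GC content across all genes. In 10 groups of equal size, the median log2 ratio of all genes declined from 1.51 in the group of lowest GC content (31.2% to 42.1%) to -0.68 in that of highest (58.2% to 72.8%). Over 15109 genes, Spearman's rank correlation of the ratio with GC content was -0.69 and with transcript length 0.38, a description over genes of the same 2 libraries. All 13 mtDNA-encoded mRNAs, at 31.9% to 41.1% GC, lay in the lowest group, where 92.7% of all genes had a ratio above 1 and 69.1% were past 2-fold. The median of the 13 of 1.16 was below that group's 1.51. Whether the GC trend is technical or a difference between the livers cannot be told apart with 1 library per group.

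Nuclear members did not follow the trend in the same measure. In the group of lowest GC content, 4 nuclear members had a median of 0.01 where all genes had 1.51, and in the next 3 groups the members stood at -0.25, -0.15 and -0.27 where all genes had 1.16, 0.76 and 0.47. In the 4 groups of highest GC content, the members (-0.44, -0.57, -0.69 and -0.71) were close to all genes (-0.34, -0.49, -0.60 and -0.68). The nuclear members were also short, with a median transcript length of 754 bases against 2798 for all genes. The 15 members with a ratio above 1 all lay in the 5 groups of lower GC content.

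**Figure D4:**
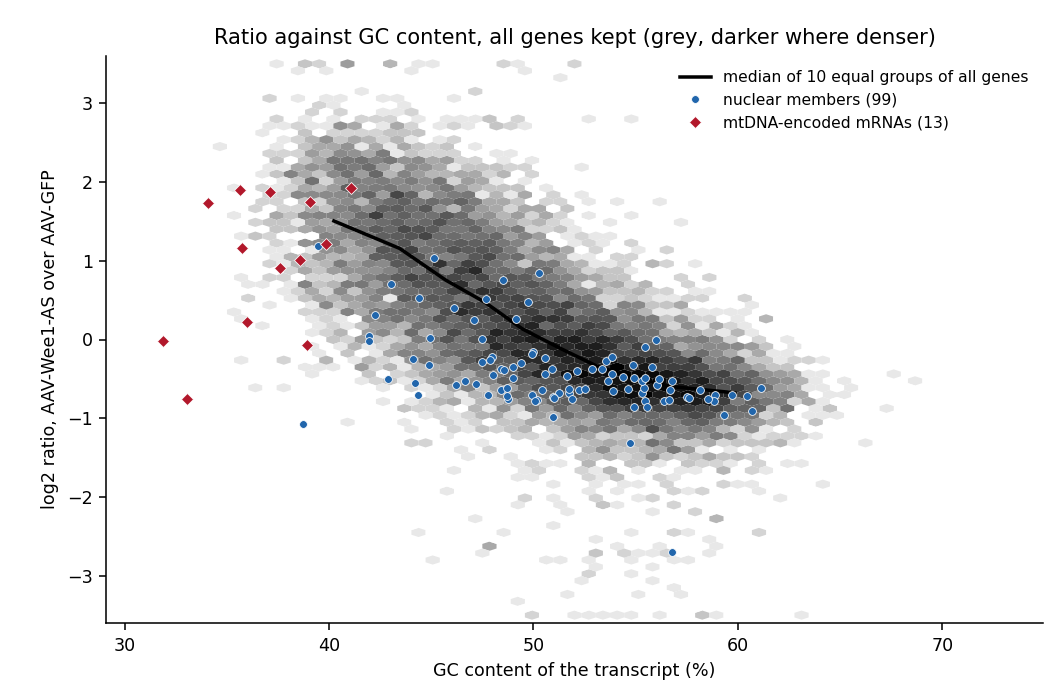
Log2 ratio against GC content of the transcript for all genes kept with a GC value (grey, darker where denser, clipped at the edges), nuclear members (blue) and mtDNA-encoded mRNAs (red). The black line joins the medians of 10 equal groups of all genes, and below about 50% GC most blue points lie under it.

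With the trends for GC content and length removed, the direction of the 2 genomes was no longer separate. The median of the 13 mtDNA-encoded mRNAs became -0.01, with 6 above and 7 below 0, and that of the 99 nuclear members -0.09, with 43 above and 56 below 0. Within the mtDNA the corrected ratios still ranged from -1.53 for *ND3* and -1.16 for *COX3* to 1.18 for *ND4L*. The corrected medians depended on the transcript that gave GC content and length. With the matched and the longest transcript they were 0.04 and -0.20 for complex I, -0.04 and -0.10 for complex II, -0.31 and -0.37 for complex III, -0.29 and -0.46 for complex IV, and -0.05 and -0.51 for complex V, the latter close to its uncorrected -0.56. Assembly factors stood at -0.10 and -0.09, with 5 above and 12 below 0, where structural subunits had 38 above and 42 below with the matched transcript. *Ndufa5* (1.20), *Sdha* (0.49) and *Ndufs1* (0.29) stayed above 0, and *Ndufaf4* (-0.27), *Uqcrc2* (-0.23) and *Ndufs4* (-0.21) did not. *Ndufb2* stood at -2.20, with a GC value matched by transcript length alone. The trends of all genes were not those of the nuclear members, whose corrected values had a Spearman's rank correlation of 0.68 with GC content over 99 members, so the corrected ratio is low for members of low GC content. Of the genes of other lists named above as past 2-fold higher, *Ppargc1a* turned to -0.39 (-0.26 with the longest transcript), and *Ttc19* to -0.47 (but 0.40 with the longest). *Tfam* became 0.06, *Tfb2m* 0.58, *Mterf2* 0.43 and *Lrpprc* 0.59, no longer past 2-fold, while *Pnpt1* (1.21) and *Fastkd2* (1.01) were. *Gabpa*, *Sucla2*, *Dld*, *Tomm70a* and *Hspd1* were no longer past 2-fold higher either, as no gene of their lists was. *Idh2* was no longer below 0.5-fold. In the list of mtDNA maintenance and transcription, 14 of 16 were above 0 and 4 past 2-fold higher, with a median of 0.51 (0.37 with the longest). These were not all the same genes as before. *Polrmt* turned from -0.51 to 0.03, and *Tfb1m* from 0.46 to -0.01. The 4 past 2-fold were *Mterf1a* (3 and 18 counts), *Mterf1b* (4 and 27 counts), *Polg2* (1.07, from 0.60) and *Top1mt* (1.06, from 0.47). In mitochondrial RNA processing, 8 were above and 8 below 0 and 2 past 2-fold higher. Over all genes with the trends removed, 7558 of 15109 were above 0 and 972 past 2-fold higher. The corrected medians of the other pathway lists lay between -0.12 and 0.03 with the matched transcript and between -0.23 and -0.02 with the longest.

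The tissue was checked by its markers. All 10 hepatocyte markers were kept, 6 with a ratio above 1, at a summed level of 87519 and 96903 TPM with AAV-GFP and AAV-*Wee1-AS*. Summed levels were 873 and 540.1 TPM for Kupffer cells and macrophages (4 of 10 above 1), 205 and 175 for endothelial cells (3 of 8), 168 and 130.4 for stellate cells (3 of 8), 44.1 and 37.9 for cholangiocytes (2 of 5) and 3358 and 1790.4 for erythroid cells (1 of 6). Of 6 adipocyte markers, 3 were at 0 in both libraries and the 2 kept were *Fabp4*, with 399 and 408 counts, and *Cidea*, with 1784 and 192. Within the stellate list 4 of 8 markers were below 0.5-fold, with log2 ratios of -2.30 for *Col1a1*, -2.01 for *Col3a1*, -1.71 for *Acta2* and -1.08 for *Pdgfrb*, while *Dcn*, the largest part of the sum, stood at 0.35. With trends removed all 8 were below 0 with the matched transcript. The part of these differences in the OXPHOS ratios was not tested. In whole liver, fewer cells of a type and less RNA per cell cannot be told apart.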

How the data were processed

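Poly-A RNA from whole liver was sequenced with a stranded kit in 2 libraries, AAV-GFP and AAV-*Wee1-AS*, grouped by their labels, while the design text speaks of 4 liver samples. The submitters' processing notes name Trimmomatic 0.38, HISAT2 2.1.0, SAMtools 1.9, StringTie 2.1.3b and mm10, and the strand setting of counting is not given in the sources used here. For each of 129299 transcripts the authors deposited an estimated count as a whole number, shared out between overlapping transcripts. They also deposited FPKM and TPM per transcript, which divide by length and depth.

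Estimated counts were summed per gene symbol, over mRNA rows for nuclear members and over all rows for other genes. Coordinates are those of mm10. A gene was kept if either library had at least 10 counts, and libraries were scaled with TMM (edgeR 4.0.16, R 4.3.3). Log2 ratios used a prior count of 2, and a ratio above 2 or below 0.5 was called, the fold limits of the study. Intervals are Clopper-Pearson at 95%, and 3 counts were the floor. The calculation was tested on simulated data. GC content and length came from GENCODE M21 (GRCm38), and their trends were removed by lowess (span 0.3, statsmodels 0.14.6) in 5 alternating cycles. GC content was first taken from each gene's longest transcript and, after values were seen, from the one matching its most abundant transcript by accession or else length, since the longest could hold a retained intron. Values are with the matched transcript unless the longest is named. Other scalings (DESeq2 1.42.0, library totals, upper quartile), filters, prior counts, FPKM and TPM were alternatives.

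Members and lists were chosen with earlier results of these data known. Named genes were every mtDNA-encoded mRNA, complex II, core subunits, the 3 highest and 3 lowest of each complex with at least 100 counts, members past 2-fold and paired isoforms, plus from other lists *Ppargc1a*, *Tfam*, *Polrmt*, *Lrpprc*, *Cycs*, *Cyc1*, *Cs* and up to 2 genes per direction past 2-fold. *Ndufa13*, *Ndufaf6*, *Ndufa11*, *Ndufb4*, *Nrf1* and the rRNAs were named after their values were seen. Not every core subunit is reported here.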

Additional observations from a re-analysis of the deposited data

How the results depend on the processing

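Removing the trends with GC content and length was the alternative that changed the account of both genomes, and the cause of those trends was not tested. The median log2 ratio of the mtDNA-encoded mRNAs turned from 1.16 to -0.0088, and to -0.012 with the longest transcript as source of GC content and length, an alternative chosen after seeing the data. With the matched and the longest transcript, the nuclear median was -0.088 and -0.22, that of complex I 0.035 and -0.20, that of complex IV -0.29 and -0.46 and that of complex V -0.055 and -0.51. In the same order, *COX2* turned to -0.044 and -0.084, *ND2* to -0.0088 and -0.012, and *Ndufaf4* to -0.27 and -0.13. Nuclear members past 2-fold became 1 and 1 higher and 6 and 16 lower, with 43 and 31 above 1. Of the mtDNA-encoded mRNAs, 1 was then past 2-fold higher, 2 were below 0.5-fold and 6 were above 1, with either transcript. Sign changed for 48 and 36 of 99 nuclear members and for 4 of the 13 with either. Upper-quartile scaling moved the median of all genes by -0.13 and gave -0.66 for the nuclear members, -0.64, -0.86 and -0.69 for complexes I, IV and V, with 1 nuclear member past 2-fold higher and 6 lower. Library totals gave -0.80 for complex IV, with 1 higher and 5 lower. On log2(TPM + 1) and log2(FPKM + 1), 0 nuclear members were past 2-fold higher, and these scales counted 1608 and 1029 of all genes as higher (3572 in the counts) and 439 and 308 as lower (1338). With trends removed, 972 and 1118 genes were higher. No filter, 10 counts in both libraries and 50 in 1 gave 2127, 875 and 804 lower genes. The log2 difference of the mitochondrial to nuclear ratio was 1.54 in counts, 1.49 from TPM and 1.49 from FPKM. It was 1.59 over structural subunits, 1.49 without *COX1* and 1.81 without mRNAs with an annotated nuclear copy. None of these alternatives removed the trend with GC content from the ratio. With 1 library per group, depth sets only the counting error, and no alternative measures the spread between mice.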
